A study of Mus musculus with 4 samples.

Results

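The genes described here are 9 genes of prostaglandin and leukotriene synthesis, breakdown and reception, taken by symbol from the 32285 genes measured in single cells of mouse prostate tumours. They are the cyclooxygenases Ptgs1 and Ptgs2, the prostaglandin E synthase Ptges, the degrading enzyme Hpgd, the prostaglandin E2 receptors Ptger2 and Ptger4, and the leukotriene genes Alox5, Alox5ap and Ltc4s. The set was selected on the Ptgs2 UMI counts of these same libraries, which read lower under the TKO label in an earlier look at the data. The genotype values of Ptgs2 are therefore given as a description, with no test, and the other 8 genes were tested.

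Tumours came from mice with a tamoxifen-inducible Cre expressed from the Nkx3.1 locus (Nkx3.1CreERT2), which acts in prostate epithelium. All 4 libraries carried floxed alleles that include Smad4 (the libraries labelled DKO, 2 replicates), and 2 of them also carried floxed alleles of Pygo2 (labelled TKO, 2 replicates). The design text mentions 10 and 17 weeks after tamoxifen, without tying a library to either, and no age is given. Tumour cells were dissociated with enzymes, depleted of red cells and of dead cells, stained with 1 hashtag antibody per sample and loaded together on the 10x Genomics 3′ platform. The labels do not state whether the replicates are separate animals, and a p-value here measures only how far these particular libraries scatter, technical scatter included.

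Of 3508 barcodes, 3381 cells were kept, with 617 to 1208 cells and 9167770 to 18360201 unique molecular identifiers (UMIs, counted RNA molecules) per library. No barcode occurred in more than 1 library, and each sample's own hashtag was the highest in 100% of its cells. Both would follow if the cells had been assigned to samples by hashtag, so neither is a check of sample identity. In epithelial-like cells the level of Pygo2 was 8.96 CPM (UMIs of the gene per 1000000 UMIs of the summed cells) in DKO replicate 1, 8.70 in DKO replicate 2, 15.98 in TKO replicate 1 and 7.24 in TKO replicate 2. In the same order, Smad4 read 72.5, 74.4, 53.7 and 70.6. The levels of Pygo2 overlapped, so they did not separate the labels, and whether these 3′ tags lie in the deleted parts is not given in the sources used here. DKO and TKO below mean the libraries that carry those labels.

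Prostaglandins and leukotrienes are lipid mediators made from arachidonic acid, which phospholipases release from membranes. Cyclooxygenases turn it into prostaglandin H2, from which terminal synthases such as Ptges make prostaglandin E2. The 5-lipoxygenase Alox5 works with its helper protein Alox5ap to make leukotriene A4, which Ltc4s joins to glutathione. In tumours these mediators are known as signals between epithelium, stroma and myeloid cells, and prostaglandin E2 acts on immune cells largely through the receptors encoded by Ptger2 and Ptger4.

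The sequences before the starts of the cyclooxygenases are given as a description. Ptgs1 is usually a constitutive gene and Ptgs2 an inducible one, and they are shown because Ptgs2 chose the set and Ptgs1 is its paralogue. Each stretch is the 250 bases before the RefSeq start (GRCm38.p6), 5′ to 3′ on the gene's strand, in lower case with motif matches in capitals.
Ptgs1, chr2:36230176-36230425, plus strand: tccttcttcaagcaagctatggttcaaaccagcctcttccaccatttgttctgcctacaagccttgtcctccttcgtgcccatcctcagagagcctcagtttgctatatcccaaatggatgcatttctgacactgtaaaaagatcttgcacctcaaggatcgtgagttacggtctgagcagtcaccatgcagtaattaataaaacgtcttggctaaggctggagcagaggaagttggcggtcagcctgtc
Ptgs2, chr1:150099781-150100030, plus strand: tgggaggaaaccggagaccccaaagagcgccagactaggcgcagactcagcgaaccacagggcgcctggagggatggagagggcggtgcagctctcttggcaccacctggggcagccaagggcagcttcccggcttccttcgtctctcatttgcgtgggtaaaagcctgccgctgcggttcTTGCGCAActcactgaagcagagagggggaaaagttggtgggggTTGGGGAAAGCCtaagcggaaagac
The search covered 6 motifs on both strands, where N is any base: TATAA, the cAMP response element core TGACG, the E-box CACGTG, the NF-kB motif (GGG, 5 bases of any kind, then CC), the C/EBP motif TTNNGNAA and the AP-1 motif TGANTCA. Ptgs2 held 2 C/EBP matches, TTGCGCAA from base -69 to -62 and TTGGGGAA from -25 to -18, counted from the start. The latter overlapped its NF-kB match, GGGGAAAGCC, from -23 to -14. Ptgs1 held none of the 6 motifs in this window, and sites outside the window were not searched for either gene. Among 27025 promoters of the same length, 36.9% held the C/EBP motif, 45.4% the NF-kB motif, 23.5% TATAA, 17.9% the cAMP core, 6.87% the AP-1 motif and 6.05% the E-box. Of the 9 genes, 8 had a promoter entry and Alox5ap had none. The genes do not lie together: in GRCm38, Ptgs2 is on chromosome 1 (150100031 to 150108227), Ptgs1 and Ptges are both on chromosome 2 (36230426 to 36252272 and 30889471 to 30929863), and the other 6 are each on a chromosome of their own.

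Cells were clustered without the 9 genes and without 44 other genes of the pathway, and clusters were named from marker genes. That gave 6 named classes with at least 20 cells in every library, plus a cluster led by Foxp3, Tnfrsf4 and Il1rl1 that stayed unnamed and is called the Foxp3 cluster. Neutrophil-like cells numbered 337, 290, 512 and 281 in DKO 1, DKO 2, TKO 1 and TKO 2, and that order of libraries holds for every set of 4 values below. T- and NK-like cells numbered 87, 196, 318 and 286. The other classes were small, with 26 to 88 epithelial-like, 29 to 58 fibroblast-like, 33 to 77 macrophage- and monocyte-like, 37 to 82 dendritic-like and 24 to 41 Foxp3-cluster cells per library. All levels are CPM of the summed UMIs of a class. They compare 1 gene between classes or libraries, and are not used to rank different genes.

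The genes differed in the classes where their means were highest, and several shared the same class. Among these 7 classes, Ptgs1, Ptgs2, Alox5 and Ltc4s had their highest mean in neutrophil-like cells, and Hpgd and Ptger2 in macrophage- and monocyte-like cells. Alox5ap was high in all 3 myeloid classes, Ptges was highest in epithelial-like and fibroblast-like cells, and Ptger4 in dendritic-like and T- and NK-like cells. Only for Ptgs2 and Alox5 did the range of the highest class not overlap that of the next. Clusters were drawn from the same cells, so these levels are a description with no test. The class with the highest mean was the same for each gene when cells were clustered more coarsely or more finely.

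**Figure D1:**
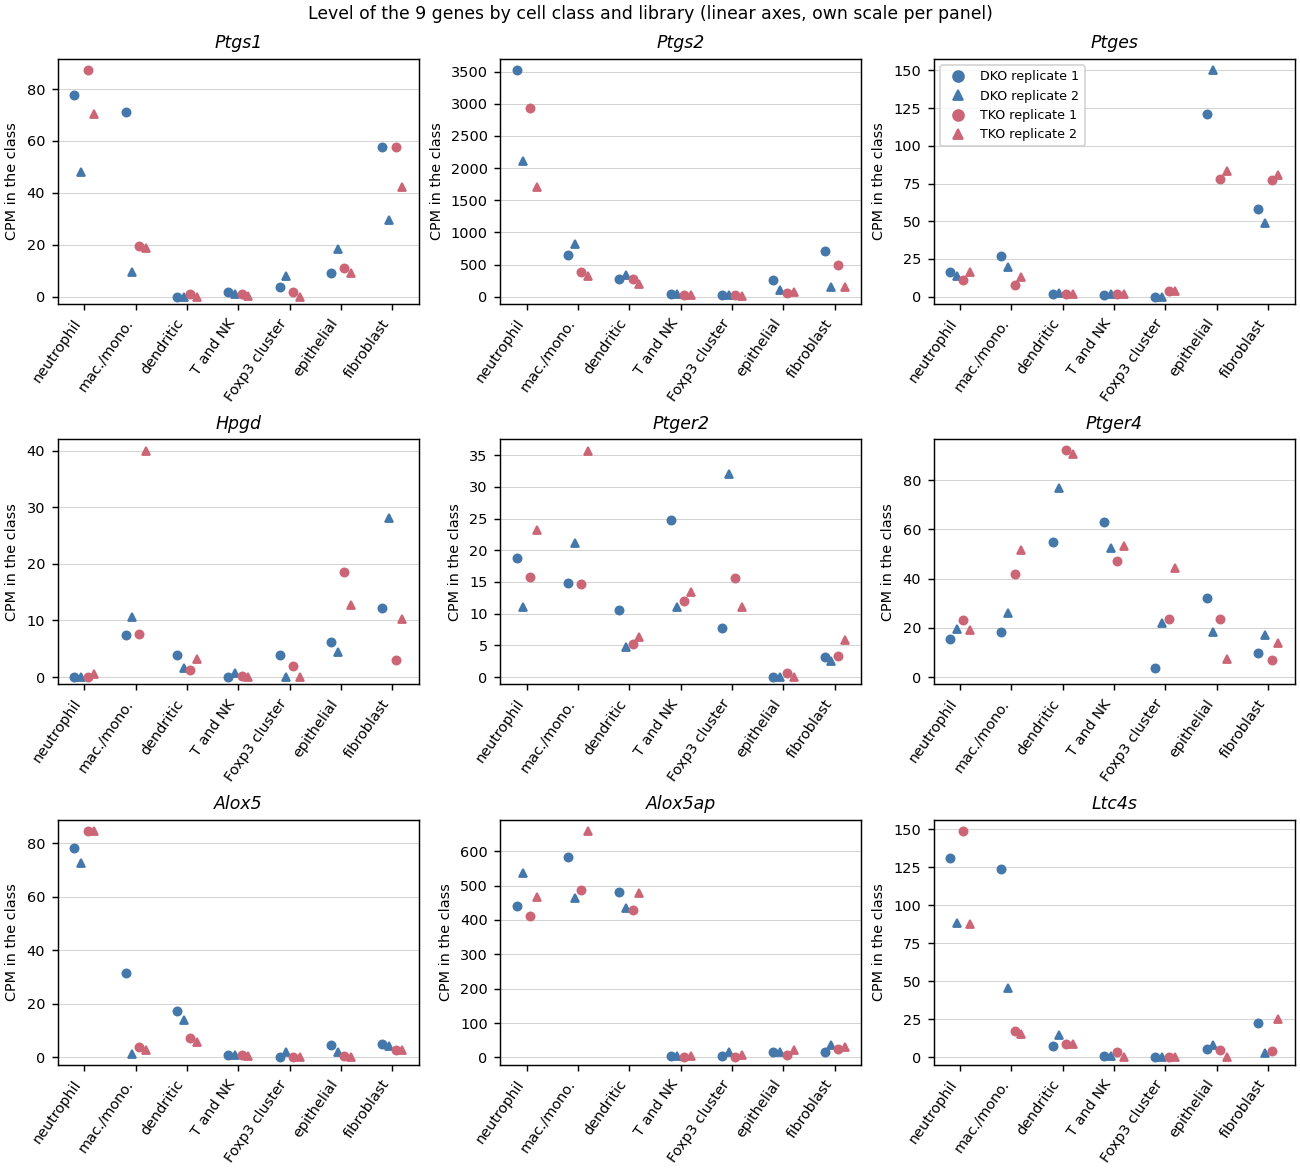
Level of each gene (CPM of summed UMIs, linear axis starting at 0, own scale in each panel) in 7 cell classes, with 1 point per library (blue DKO, red TKO, circles replicate 1, triangles replicate 2). Ptgs2 lies between 1710 and 3521 CPM in neutrophil-like cells and below 819 in every other class shown, while Alox5ap lies between 413 and 658 in 3 myeloid classes.

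Ptgs2, the inducible cyclooxygenase, had 35668 UMIs in all cells. In neutrophil-like cells it read 3521, 2108, 2943 and 1710 CPM, with a UMI in 90.5% of cells (exact 95% binomial interval 86.9 to 93.4), 90.3% (86.3 to 93.5), 82.8% (79.3 to 86.0) and 77.2% (71.9 to 82.0). Intervals cover counting error only. Replicate 1 was high and replicate 2 low in both genotypes, and the genotypes overlapped in CPM. With each cell thinned to 1000 UMIs the shares were 74.6%, 67.4%, 62.5% and 51.6%. The next classes were macrophage- and monocyte-like cells (645.6, 818.6, 387.0 and 321.4), fibroblast-like cells (703.8, 155.5, 499.9 and 154.7) and dendritic-like cells (279.3, 340.7, 275.8 and 202.8). The ranges of these 3 classes overlapped, so their order does not exceed the spread between libraries. The neutrophil-like range did not overlap any of them.

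Between genotypes, Ptgs2 was lower in both TKO libraries than in both DKO libraries in 4 of 7 classes: macrophage- and monocyte-like, dendritic-like, epithelial-like, and T- and NK-like cells. In epithelial-like cells it read 259.7, 109.7, 56.2 and 74.2 CPM, a fitted log2 change of -1.52 ± 0.47 (SE, 2 libraries per genotype). Without DKO replicate 1 it was -0.76, without DKO replicate 2 it was -2.07, and without the 5% of cells with the most UMIs it was -0.93. Macrophage- and monocyte-like cells had a change of -1.09 ± 0.23. In T- and NK-like cells it was -0.80 ± 0.24, from 42.9, 34.5, 20.4 and 24.0 CPM. In dendritic-like cells it was smaller, at -0.33 ± 0.20. In neutrophil-like and fibroblast-like cells the libraries overlapped, at -0.33 ± 0.32 and -0.37 ± 0.96. In the Foxp3 cluster, where Ptgs2 had 2 to 14 UMIs per library, they also overlapped. The rule that picked the set used these values, so nothing is read from their direction. For scale, both TKO libraries were below both DKO libraries for 20.3% of genes tested in epithelial-like cells, 15.7% in macrophage- and monocyte-like cells, 21.4% in dendritic-like cells and 15.2% in T- and NK-like cells.

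A few cells held much of the Ptgs2 outside neutrophils. In epithelial-like cells 1 cell held 152 of 290 UMIs in DKO replicate 1, 1 cell held 169 of 416 in DKO replicate 2 and 1 cell held 30 of 41 in TKO replicate 2. In fibroblast-like cells single cells held 413 of 1101 UMIs in DKO replicate 1 and 412 of 1343 in TKO replicate 1. Without the 2 cells richest in Ptgs2 in each library, the epithelial-like levels were 38.3, 60.1, 21.6 and 15.99 CPM, with both TKO libraries below both DKO libraries. Ptgs2 chose the set through these libraries, so that order is a description and no support for a difference. In dendritic-like cells, leaving out the 2 richest cells gave 176.6, 239.1, 204.1 and 75.5, and the genotypes overlapped. Without DKO replicate 1 the fibroblast-like change was 1.07, and over all cells it went from -0.62 ± 0.62 to 0.39.

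**Figure D2:**
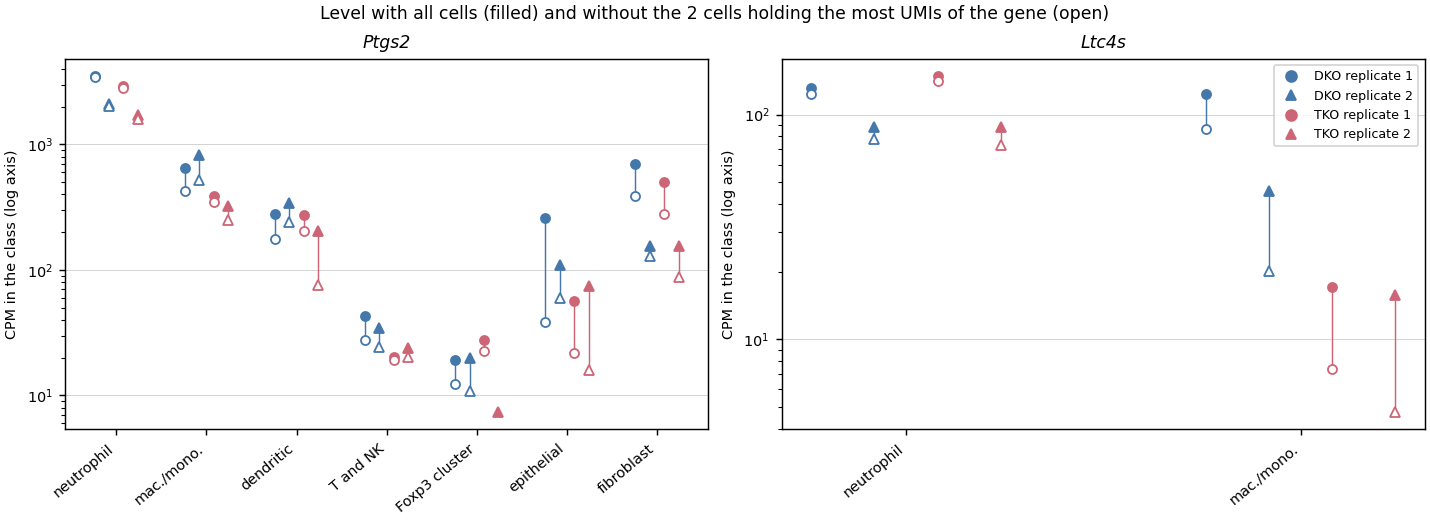
Levels of Ptgs2 in 7 classes and of Ltc4s in 2 classes (CPM, log axis) per library, with all cells (filled) and without the 2 cells that hold the most UMIs of the gene (open, joined by a line; an open point at 0 is not drawn). The epithelial-like Ptgs2 level of DKO replicate 1 goes from 259.7 to 38.3 CPM, while the neutrophil-like points hardly move.

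RNA of neutrophil genes lay beside the low Ptgs2 levels of lymphoid cells, and was also found in epithelial-like cells. As a measure, Ptgs2 UMIs were set against the UMIs of 6 neutrophil genes (S100a8, S100a9, Csf3r, Cxcr2, Retnlg and Il1r2) in the same cells. Neutrophil-like cells held 8.46, 4.45, 9.53 and 4.78 Ptgs2 UMIs per 100 UMIs of these genes. The Foxp3 cluster held 9.80, 7.46, 10.3 and 3.70, close to those ratios. T- and NK-like cells held 9.96, 27.7, 7.19 and 12.1, near the neutrophil ratio in both replicates 1 and above it in both replicates 2. The ratios of macrophage- and monocyte-like cells were 181.1, 64.4, 114.1 and 100.9, far above it. Epithelial-like cells held 38.6, 35.2, 15.0 and 10.6. If the 6 genes were all neutrophil RNA there, each library's own neutrophil ratio would give 21.9%, 12.6%, 63.3% and 45.2% of epithelial-like Ptgs2 UMIs. The 6 genes summed to 673, 312, 374 and 702 CPM there, above the 431, 125, 283 and 199 of T- and NK-like cells. Whether epithelial-like cells make any of the 6 genes themselves was not tested, and a ratio pooled over libraries was not used. All 13 neutrophil markers had UMIs in the T- and NK-like class, at 299 to 654 CPM summed. The part of neutrophil RNA in the T- and NK-like and epithelial-like differences was not tested.

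Within the T- and NK-like class, most of the DKO excess of Ptgs2 sat in 1 cluster. This cluster was led by Cd163l1, Trdc and Trdv4, the last 2 being genes of the gamma-delta T cell receptor. It held 28, 56, 6 and 2 Ptgs2 UMIs in 27, 25, 26 and 13 cells, or 105.3, 177.9, 23.4 and 15.0 CPM. A single cell held 21 of the 56 UMIs in DKO replicate 2. In the cluster of NK genes (Klra8, Klra4, Xcl1) the order was the other way, at 13.8, 13.7, 15.0 and 43.5 CPM. The share of all genes with either order was not computed within these clusters.

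Ptgs1, the constitutive cyclooxygenase, read 77.9, 48.1, 87.2 and 70.3 CPM in neutrophil-like cells and 57.5, 29.4, 57.7 and 42.3 in fibroblast-like cells. These ranges overlapped, and so did the genotypes in both classes. In macrophage- and monocyte-like cells it read 71.1, 9.40, 19.5 and 18.6, so DKO replicate 1 stood alone and its fitted change of -1.17 ± 0.88 had an adjusted p of 0.897 in edgeR's quasi-likelihood test. Without that library the change was 0.98. Dendritic-like cells held 0 to 2 Ptgs1 UMIs per library. Ptgs1 and Ptgs2 had UMIs together in 82, 42, 136 and 47 neutrophil-like cells, where the product of their shares gives 80.5, 44.3, 135.0 and 42.5.

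Of the 8 genes other than Ptgs2, 0 passed an adjusted p of 0.05 between genotypes in any of the 7 classes or in all cells summed, by edgeR's quasi-likelihood test adjusted over all genes of a class. Few genes of any kind did: 0.039% of genes tested in macrophage- and monocyte-like cells, 0.011% in neutrophil-like, 0.0556% in T- and NK-like, 0.0595% in dendritic-like, 0.251% in the Foxp3 cluster, and 0% in epithelial-like cells, fibroblast-like cells and all cells summed. At an unadjusted p under 0.05 the counts of tested members were 3 of 7 in macrophage- and monocyte-like cells, 1 of 4 in dendritic-like, 2 of 5 in epithelial-like, 2 of 6 in fibroblast-like, 0 of 7 in neutrophil-like and 0 of 2 in T- and NK-like cells, and 2 of 8 in all cells. Over all genes tested, the share under that p was 6.87% in macrophage- and monocyte-like, 7.28% in dendritic-like, 5.68% in epithelial-like, 3.77% in fibroblast-like, 4% in neutrophil-like and 5.24% in T- and NK-like cells, and 11.8% in all cells. No member passed the filter on low counts in the Foxp3 cluster. DESeq2 called 1 member in macrophage- and monocyte-like cells, where it called 0.455% of genes, and 1 in all cells, where it called 2.28%, both named below. On simulated counts of the same libraries the edgeR test recovered 0% of 2-fold and 79% of 4-fold changes in macrophage- and monocyte-like cells, and 6% and 80% in neutrophil-like cells. It recovered 45% and 85.5% in T- and NK-like, 39% and 80.5% in dendritic-like, 14.5% and 82% in Foxp3-cluster, 9.5% and 66.5% in fibroblast-like and 0% and 57.5% in epithelial-like cells. Each simulation changed 200 genes, which eases the adjusted cutoff, so recovery may be lower where few genes change. It also called 13 unchanged genes at 2-fold in fibroblast-like and 14 in dendritic-like cells, a larger part of the calls than the threshold aims at.

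**Figure D3:**
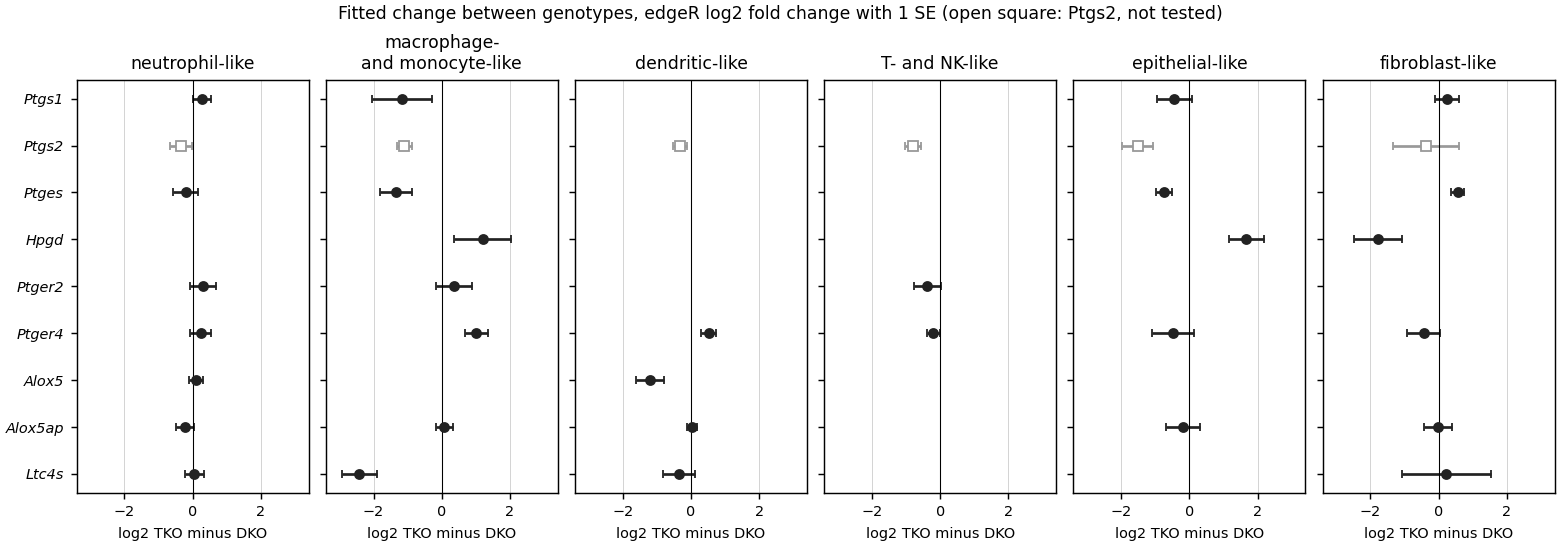
Fitted log2 change between genotypes (TKO minus DKO, edgeR) with 1 SE for each gene that passed the low-count filter in 6 classes. Ptgs2 is an open square and was not tested. Ltc4s in macrophage- and monocyte-like cells lies farthest from 0, at -2.42, and the neutrophil-like changes lie between -0.33 and 0.31.

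Ptges, which makes prostaglandin E2 from the cyclooxygenase product, was carried by epithelium and stroma. It read 120.9, 150.0, 78.0 and 83.2 CPM in epithelial-like cells and 58.2, 49.0, 77.0 and 81.0 in fibroblast-like cells. Both TKO libraries were below both DKO libraries in epithelial-like cells, as for 20.3% of genes there, and above them in fibroblast-like cells, as for 16% of genes. The fitted log2 changes were -0.75 ± 0.23 and 0.57 ± 0.19, with adjusted p-values of 0.814 and 0.997 (edgeR). Macrophage- and monocyte-like cells read 26.8, 19.97, 7.60 and 12.9, both TKO libraries lower, at -1.34 ± 0.47 (adjusted p = 0.668, edgeR). Summed over all cells it read 33.8, 51.6, 22.1 and 19.99, both TKO libraries lower (21.2% of genes), a change of -1.06 ± 0.22 with an adjusted p of 0.256 in edgeR and 0.0206 in DESeq2. Over the alternatives that p ranged from 0.0206 to 0.965. The all-cell sums mix classes in different shares: epithelial-like cells were 35 of 617, 88 of 759, 52 of 1208 and 26 of 797 cells, and the part of this mixture in the change was not tested. In such sums, fewer cells of a type and less RNA per cell cannot be told apart. Ptges and Ptgs2 had UMIs in the same cell in 18, 29, 36 and 17 fibroblast-like cells, where the product of the shares gives 16.7, 27.4, 31.1 and 17.2.

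Hpgd, the dehydrogenase that inactivates prostaglandin E2, had 250 UMIs in all cells. Neutrophil-like cells held 0, 0, 0 and 1 UMIs. Its level was 6.27, 4.48, 18.5 and 12.7 CPM in epithelial-like cells and 12.1, 28.1, 2.98 and 10.2 in fibroblast-like cells. Both TKO libraries were thus higher in epithelial-like cells (16.5% of genes) and lower in fibroblast-like cells (15.9% of genes), the reverse of Ptges. The changes were 1.67 ± 0.52 and -1.77 ± 0.70, with adjusted p-values of 0.814 and 0.997 (edgeR). Single cells carried much of both: 14 of 29 UMIs in TKO replicate 1 in epithelial-like cells and 49 of 66 in DKO replicate 2 in fibroblast-like cells. Without the 2 richest cells per library the genotypes overlapped in both classes, with log2 ratios of mean CPM of 0.80 and -0.62. Without the low-count filter the fibroblast-like change had an adjusted p of 0.0153 (edgeR). With 1 library left out, the fibroblast-like change ran from -2.76 (without TKO replicate 2) to -0.95 (without DKO replicate 2). The highest mean was in macrophage- and monocyte-like cells, at 7.39, 10.6, 7.60 and 40.0 CPM, where TKO replicate 2 alone was high and 1 of its cells held 15 of 28 UMIs.

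Ptger4 was highest in other classes than the synthases. Ptger4, the EP4 receptor, read 54.7, 76.8, 92.1 and 90.7 CPM in dendritic-like cells and 62.9, 52.3, 47.1 and 53.3 in T- and NK-like cells. The dendritic-like libraries did not overlap between genotypes, and the change was 0.51 ± 0.23 (adjusted p = 0.693, edgeR). In macrophage- and monocyte-like cells Ptger4 read 18.5, 25.8, 41.8 and 51.4, again with both TKO libraries higher, at 1.01 ± 0.34 (adjusted p = 0.655, edgeR). In T- and NK-like cells the genotypes overlapped, at -0.20 ± 0.19. Summed over all cells, the level was 27.4, 31.4, 38.9 and 44.2, a change of 0.45 ± 0.14 (adjusted p = 0.334, edgeR). Genes with both TKO libraries higher made up 15.9% of those tested in dendritic-like cells, 21.7% in macrophage- and monocyte-like cells and 24.6% in all cells.

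Ptger2, the EP2 receptor, was spread over several classes. It read 14.8, 21.1, 14.7 and 35.7 CPM in macrophage- and monocyte-like cells, 18.8, 11.03, 15.8 and 23.2 in neutrophil-like cells and 24.8, 11.1, 11.995 and 13.4 in T- and NK-like cells. The genotypes overlapped in each of these. Epithelial-like cells held 0, 0, 1 and 0 Ptger2 UMIs, while Ptger4 had 36, 70, 37 and 4 UMIs in the same cells.

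Among the 7 classes, the leukotriene genes had their highest means in myeloid classes. Alox5, the 5-lipoxygenase, read 78.3, 72.7, 84.4 and 84.5 CPM in neutrophil-like cells, with no overlap with any other of the 7 classes. Both TKO libraries were slightly higher there (18.6% of genes), by 0.10 ± 0.21 (adjusted p = 1.00, edgeR). In dendritic-like cells it read 17.3, 14.1, 7.28 and 5.67, both TKO libraries lower, at -1.19 ± 0.41 (adjusted p = 0.522, edgeR). Alox5ap, its membrane partner, read 584.7, 463.9, 487.7 and 658.4 in macrophage- and monocyte-like cells, 441.9, 535.3, 412.9 and 466.5 in neutrophil-like cells and 480.8, 436.2, 427.9 and 479.3 in dendritic-like cells. These ranges overlapped each other, and the genotypes overlapped in each class. Alox5ap was thus spread over 3 classes, of which 1 stood apart in Alox5. The T- and NK-like class held 2.04 to 3.90 CPM of Alox5ap.

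Ltc4s, the leukotriene C4 synthase, read 131.1, 88.2, 148.8 and 87.9 CPM in neutrophil-like cells, where replicate 1 was higher in both genotypes and the change was 0.05 ± 0.29. In macrophage- and monocyte-like cells it read 123.8, 45.8, 17.1 and 15.7, with both TKO libraries below both DKO libraries. A UMI was found in 55.6% (38.1 to 72.1), 24.2% (11.1 to 42.3), 12.99% (6.41 to 22.6) and 11.9% (3.98 to 25.6) of these cells, at a median of 17522 to 28422 UMIs per cell. In T- and NK-like cells, where the gene is not known to act, the shares were 1.15%, 1.02%, 2.20% and 0.699%, at a median of 11000 to 13138 UMIs. The fitted log2 change was -2.42 ± 0.51, with an unadjusted p of 0.00199 and an adjusted p of 0.366 (edgeR). The change was -1.499 without DKO replicate 1, -2.96 without DKO replicate 2, -3.365 without the 5% of cells with the most UMIs, and the log2 ratio of mean CPM was -3.14 without the 2 cells per library richest in Ltc4s. The adjusted p was 0.0180 in DESeq2, 4.62e-08 in edgeR without the low-count filter and 0.0173 in edgeR without the 5% of cells with the most UMIs. Over all alternatives it reached 1.00. The low values come from the same libraries as the main fit, so they are no further support for a difference. Without the filter edgeR called 1.12% of genes in this class.

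The makeup of this class moved with the Ltc4s difference. At a finer clustering it split into a part led by C1qa, C1qb and C1qc, complement genes of macrophages, and a part led by Chil3 and F13a1, genes of monocytes. The C1qa part made up 25 of 36, 16 of 33, 30 of 77 and 7 of 42 cells, and it held 134 of 134, 39 of 39, 35 of 36 and 8 of 11 Ltc4s UMIs. Within it Ltc4s read 150.6, 73.0, 34.7 and 53.8 CPM, with both TKO libraries lower. The share of all genes with that order was not computed within this part. Within the C1qa part Ptgs2 read 669.6, 521.9, 207.1 and 80.7, and Ptges 29.2, 11.2, 2.97 and 6.72. In the Chil3 part Ptgs2 overlapped between genotypes, at 534.6, 1319.1, 555.1 and 386.3. Ptger4 in the Chil3 part had 1, 0, 50 and 12 UMIs. These are raw counts, and that part had fewer cells in both DKO libraries, so they do not give the size of a difference. This split was looked at after the class values were known, and TKO replicate 2 had only 7 cells in the C1qa part. The 11 macrophage markers read 17027, 20121, 13561 and 6798 CPM summed over the class, and the 13 neutrophil markers 4946, 4579, 2631 and 3632, and their part in the Ltc4s difference was not tested.

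Neutrophil-like cells were not uniform in these genes. Ltc4s, Alox5 and Ptgs1 were high in 1 cluster, Alox5ap in another and Ptgs2 in yet another. In the cluster led by Siglecf and Gpc3, Ltc4s read 281.3, 269.1, 275.8 and 333.3 CPM, Alox5 121.4, 165.4, 127.8 and 122.2, and Ptgs1 117.9, 141.5, 117.3 and 186.1. In the cluster led by Retnlg, a gene of less activated circulating neutrophils, Alox5ap was highest, at 815.7, 597.0, 599.2 and 724.4, while Ltc4s was at most 10.2 CPM and Ptgs1 read 12.4, 4.65, 13.4 and 18.7. In the cluster led by Il23a and Gpr84, with Il1a and Tnf among its leading genes, Ptgs2 read 5602, 4764, 4532 and 3514, against 1868.5, 1324, 1943 and 1425 in the Siglecf cluster. Both TKO libraries were lower for Ptgs2 in the Il23a cluster and overlapped DKO in the Siglecf cluster. Alox5 in the Retnlg cluster read 47.9, 46.5, 104.7 and 81.8, with both TKO libraries higher. These are descriptions of clusters found in the same cells, with Ltc4s and Ptgs2 among the leading genes of the Siglecf and Il23a clusters. The share of all genes with such genotype orders was not computed within clusters, so these orders cannot be weighed.

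**Figure D4:**
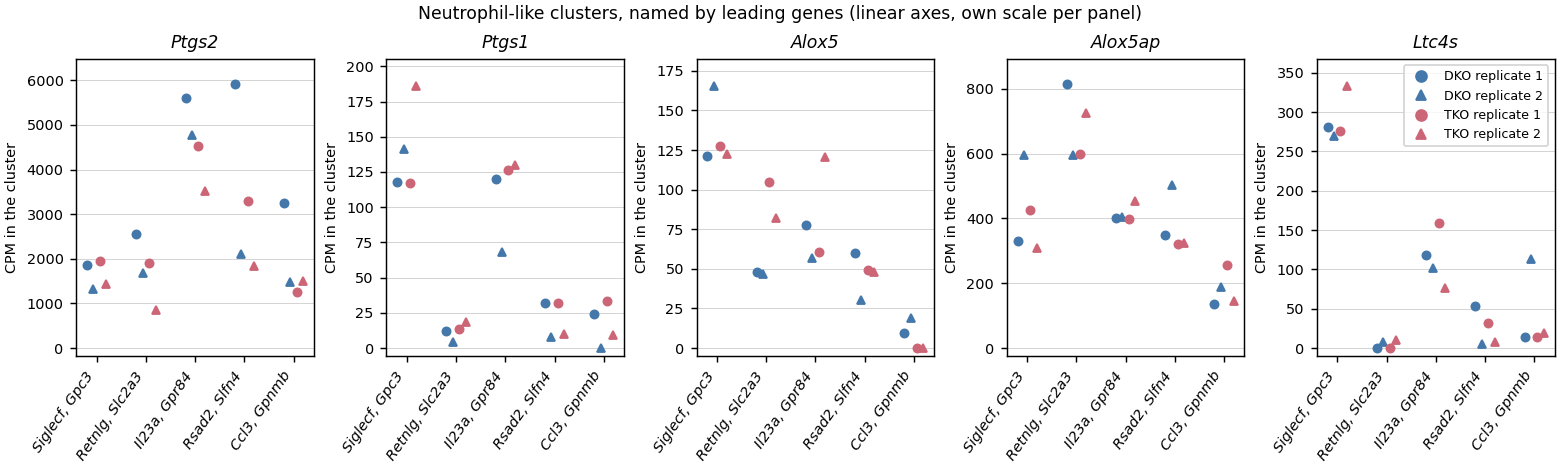
Levels of 5 genes (CPM, linear axis, own scale per panel) in the neutrophil-like clusters, named by 2 leading genes, with 1 point per library (blue DKO, red TKO). Ltc4s lies between 269 and 333 CPM in the Siglecf cluster and at 10.2 or below in the Retnlg cluster, and the Ccl3 cluster had only 9 cells in DKO replicate 2.

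The libraries filled these clusters unequally. The Siglecf cluster held 99, 58, 161 and 50 cells and the Retnlg cluster 81, 102, 67 and 98. Replicate 1 thus had more Siglecf than Retnlg cells and replicate 2 fewer, in both genotypes, as Ltc4s and Ptgs1 over the whole class were higher in replicate 1. Alox5 and Alox5ap had UMIs in the same cell in 87, 69, 136 and 71 neutrophil-like cells, where the product of the shares gives 75.9, 65.7, 125.4 and 65.9. Alox5ap and Ltc4s were found together in 59, 45, 127 and 33 cells, against products of 64.5, 45.1, 131.4 and 34.7.

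Classes too small to test held some of the highest levels. Mast- and basophil-like cells, 2 to 7 per library, read 834.6, 732.0, 1047 and 1569 CPM of Alox5ap and 516.6, 112.6, 194.0 and 371.6 of Alox5. ILC2-like cells, 3 to 13 per library, read 39.0, 138.5, 138.8 and 156.9 of Alox5. Plasmacytoid dendritic-like cells, 5 to 17 per library, read 383.8, 302.6, 352.3 and 362.3 of Alox5ap. Ptgs2 in mast- and basophil-like cells read 119.2, 1126, 2250 and 1280, from 3, 20, 174 and 31 UMIs. In B- and plasma-like cells it read 8.59, 17.0, 22.7 and 17.2. Both TKO libraries were higher in each, as a description, and the share of genes with that order was not computed there.

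The other 44 genes of the pathway gave no call either. They comprised phospholipases, other prostanoid synthases and receptors, transporters, and leukotriene enzymes and receptors, and 8 to 24 of them passed the low-count filter per class. In each of the 7 classes and in all cells 0 passed an adjusted p of 0.05 (edgeR). At an unadjusted p under 0.05 there were 2 of 8 tested in the Foxp3 cluster (beside 6.02% of all genes), 3 of 17 in T- and NK-like, 3 of 15 in dendritic-like, 1 of 18 in epithelial-like, 0 of 24 in fibroblast-like, 0 of 19 in macrophage- and monocyte-like and 1 of 19 in neutrophil-like cells, and 6 of 34 in all cells, where the share over all genes was 11.8%. The direction of the fitted changes differed between classes. In T- and NK-like cells 11 fitted higher and 6 lower in TKO (median log2 change 0.15, beside 0.00 over all genes tested, of which 50.6% fitted lower). In the Foxp3 cluster 5 fitted higher and 3 lower (0.26 beside 0.01, 49.2% lower), and in epithelial-like cells 9 and 9 (0.01 beside 0.02, 48.3% lower). More fitted lower in dendritic-like cells, with 5 higher and 10 lower (-0.04 beside 0.00, 49.7% lower), and in macrophage- and monocyte-like cells, with 8 and 11 (-0.32 beside -0.01, 50.8% lower). The same held in fibroblast-like cells, with 6 and 18 (-0.12 beside 0.00, 49.5% lower), in neutrophil-like cells, with 6 and 13 (-0.22 beside 0.00, 49.5% lower), and in all cells, with 8 and 26 (-0.23 beside -0.02, 52.8% lower).

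The stroma held the prostacyclin synthase Ptgis, at 359.2, 285.9, 348.8 and 232.8 CPM in fibroblast-like cells, and the prostaglandin E2 receptor Ptger3, at 209.0, 112.0, 152.6 and 70.8. Epithelial-like cells held Anxa1, a lipid-binding protein that limits inflammation, at 5985, 4206, 5318 and 2238, the prostaglandin carrier Slco2a1 at 67.2, 93.6, 41.5 and 139.3, and the 12-lipoxygenase Alox12 at 60.0, 44.3, 42.2 and 10.9. Neutrophil-like cells held Cyp4f18, which inactivates leukotriene B4, at 848.9, 1799, 789.3 and 884.2. The cytosolic phospholipase Pla2g4a had its highest mean in macrophage- and monocyte-like cells, at 91.4, 47.0, 55.6 and 61.4. That range overlapped those of fibroblast-like cells (78.0, 49.0, 49.5 and 29.9) and epithelial-like cells (69.8, 54.1, 53.0 and 10.9). The leukotriene A4 hydrolase Lta4h had its highest mean in dendritic-like cells, at 95.02, 68.9, 90.4 and 64.2. This overlapped its range in T- and NK-like cells (49.6, 52.3, 74.5 and 57.7).

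Of the genes whose genotypes did not overlap, those with the smallest p included receptors, enzymes and a transporter. Both TKO libraries were lower for 19.2% of genes tested in the Foxp3 cluster and 21.4% in dendritic-like cells. In T- and NK-like cells that share was 15.2%, and in neutrophil-like cells 10.3%. Both were higher for 13.8% of genes in the Foxp3 cluster, 16.5% in epithelial-like cells and 19.9% in T- and NK-like cells. Ggt1, which trims leukotriene C4, read 0.895, 0.791, 31.3 and 12.7 CPM in epithelial-like cells, at 4.77 ± 0.76 (adjusted p = 0.439 in edgeR). DESeq2 and edgeR without the filter both called it, as they did 0.41% and 1.25% of genes in this class. Ltb4r1, a leukotriene B4 receptor, read 199.4, 95.9, 60.9 and 36.8 in the Foxp3 cluster, at -1.43 ± 0.39 (adjusted p = 0.162, edgeR). With the replicate number as a block its adjusted p was 0.00658 (edgeR), at -1.53. That block pairs equal numbers, which the labels do not state, and replicate 1 minus replicate 2 correlated between genotypes at 0.093 in this cluster. Without DKO replicate 2 the change of Ltb4r1 was -1.89, with 1 DKO library left. Cysltr2, a receptor for cysteinyl leukotrienes, read 53.7, 53.9, 125.7 and 95.7 in the same cluster, at 1.10 ± 0.37 (adjusted p = 0.439, edgeR). Its relative Cysltr1 was lower in both TKO libraries in dendritic-like cells, at 62.4, 53.3, 34.3 and 35.3 (adjusted p = 0.522, edgeR). The same order held in T- and NK-like cells, at 43.9, 46.3, 31.0 and 34.3 (adjusted p = 0.854, edgeR). Pla2g4a in dendritic-like cells read 31.7, 22.7, 9.85 and 8.19, at -1.51 ± 0.36 (adjusted p = 0.274, edgeR). In T- and NK-like cells Slco2a1 read 0, 0.670, 3.62 and 4.46, with 34 UMIs in all, at 2.92 ± 0.88 (adjusted p = 0.607, edgeR). The formyl peptide receptor Fpr2 in neutrophil-like cells read 189.4, 198.5, 138.3 and 104.3, at -0.75 ± 0.23, and its adjusted p was 1.00.

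Genes with the most similar pattern over 28 class-by-library sums were found by Pearson's r, as a description that shares libraries and depth. Tnfaip2 was nearest to Ptgs2 (r = 0.95), Rhou to Ptges (0.98), Wfdc17 to Alox5ap (0.98), Fth1 to Ltc4s (0.91), Il1bos to Alox5 (0.89), Lrg1 to Ptgs1 (0.88), Rab8b to Ptger2 (0.90), Sash1 to Hpgd (0.87) and Sub1 to Ptger4 (0.83).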

How the data were processed

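Whole-number UMI counts per gene and cell were deposited by the authors, made with Cell Ranger 7.0.0 and STAR on mm10 per the submitters' processing notes. The filter kept cells with 200 or more genes and no more than 20% mitochondrial UMIs. Cells were clustered with scanpy 1.11.5 (2000 variable genes without the members and the pathway list, 30 components, Leiden resolution 1.0) and named from marker lists by a rule settled after the clusters were seen. Doublets were not called. Depths are given in the report. Counts were summed per library and class and tested with edgeR 4.0.16 (quasi-likelihood, TMM, low-count filter, Benjamini-Hochberg over all genes of a class). The test was also run on simulated counts with 200 changed genes per class. Shares of cells were compared by exact permutation tests, which with 2 against 2 libraries cannot go below p = 0.333, so none is printed. DESeq2 1.42.0, other scaling, filters, clusterings and cell sets, a replicate block and leaving out libraries were alternatives; leaving out the 2 richest cells was added after seeing the data. Pathway genes are named where both TKO libraries lay on one side of both DKO libraries (up to 3 per class, smallest p), and by the highest levels per role (up to 2). The members and lists were chosen with earlier results of these data known. Positions are from GENCODE (GRCm38).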

Additional observations from a re-analysis of the deposited data

Results flagged for a closer look

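In all, 3 genes had TKO libraries above both DKO libraries in 1 cell class and below both in another. The differences between classes were not tested. The share of all genes with both orders was not computed, so the count of 3 cannot be set beside it. Ptges was lower in TKO in epithelial-like cells (log2 change -0.75, where 20.3% of all genes had both TKO libraries lower) and in macrophage- and monocyte-like cells (-1.34, 15.7% of genes) and higher in fibroblast-like cells (0.57, 16% of genes higher). Hpgd was higher in epithelial-like cells (1.67, 16.5%) and lower in fibroblast-like cells (-1.77, 15.9%). Alox5 was lower in dendritic-like cells (-1.19, 21.4%) and higher in neutrophil-like cells (18.6%) by 0.10, less than its SE of 0.21.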

How the results depend on the processing

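The count of 0 members called was the same in neutrophil-like, dendritic-like, epithelial-like and T- and NK-like cells and in the Foxp3 cluster under every alternative run. In the main fit 0 of 8 members passed the low-count filter in the Foxp3 cluster, so the filter alone set that count. In T- and NK-like cells 2 of 8 were tested. A fit with 1 library left out has 1 library in 1 genotype, with no spread behind it there. In macrophage- and monocyte-like cells 1 was called with DESeq2, without the filter and without the 5% of cells with the most UMIs (Ltc4s each time), and 0 to 3 with 1 library left out, the 3 being Ptgs1, Alox5 and Ltc4s without DKO replicate 2. In fibroblast-like cells 1 was called without the filter (Hpgd), and in all cells 1 with DESeq2 and without the filter and 0 to 1 with 1 library left out (Ptges, without DKO replicate 1). Pathway genes gave 1 call each in epithelial-like cells with DESeq2 and without the filter (Ggt1), in dendritic-like (Pla2g4a) and macrophage- and monocyte-like cells (Ptgis) without the filter and in all cells with DESeq2 (Anxa1), and with 1 library left out 0 to 2 in macrophage- and monocyte-like cells (Ptgis and Alox15, without DKO replicate 2) and 0 to 1 in the Foxp3 cluster (Ltb4r1). The replicate block called 1 pathway gene, Ltb4r1 in the Foxp3 cluster, 0 members, and changed no other call. The labels do not say that equal numbers pair the libraries, and replicate 1 minus replicate 2 correlated between genotypes at -0.062 to 0.33 across genes. The class with the highest level stayed the same for each gene at both other clustering resolutions, and those levels moved by less than the SD over libraries, except that the neutrophil-like Alox5 level was 71.9 CPM as a mean over cells. Thinned shares of positive cells differed by -3.35 (1000 UMIs) and -1.95 points (2000) for epithelial-like Ptges, by 3.46 and -0.63 for macrophage- and monocyte-like Alox5ap and by 0.93 (1000) for neutrophil-like Alox5. Signs turned for these uncalled changes with 1 library left out, as ranges: -0.99 to 0.17 for Ptger2 in T- and NK-like cells, -0.0701 to 0.14 for Alox5ap in dendritic-like cells, -0.75 to 0.25 for Ltc4s in dendritic-like cells, -0.81 to 0.15 for Ptgs1 in epithelial-like cells, -1.89 to 0.0407 for Ptger4 in epithelial-like cells, -0.79 to 0.35 for Alox5ap in epithelial-like cells, -0.17 to 0.76 for Ptgs1 in fibroblast-like cells, -0.93 to 0.0986 for Ptger4 in fibroblast-like cells, -0.47 to 0.76 for Alox5ap in fibroblast-like cells, -1.42 to 2.20 for Ltc4s in fibroblast-like cells, -1.95 to 0.98 for Ptgs1 in macrophage- and monocyte-like cells, -0.26 to 2.10 for Hpgd in macrophage- and monocyte-like cells, -0.30 to 0.94 for Ptger2 in macrophage- and monocyte-like cells, -0.14 to 0.27 for Alox5ap in macrophage- and monocyte-like cells, -0.59 to 0.16 for Ptges in neutrophil-like cells, -0.0508 to 0.66 for Ptger2 in neutrophil-like cells, -0.0172 to 0.51 for Ptger4 in neutrophil-like cells, -0.42 to 0.0231 for Alox5ap in neutrophil-like cells, -0.30 to 0.31 for Ltc4s in neutrophil-like cells, -0.78 to 0.53 for Ptgs1 in all cells, -0.10 to 0.69 for Ptger2 in all cells, -0.65 to 0.56 for Alox5 in all cells, -0.34 to 0.42 for Alox5ap in all cells, -1.06 to 0.54 for Ltc4s in all cells. Other settings turned these: -0.0692 for Alox5ap in dendritic-like cells (without the 5% of cells with the most UMIs), 0.27 for Alox5ap in epithelial-like cells (without the 5% of cells with the most UMIs), -0.59 for Ptgs1 in fibroblast-like cells (without the 5% of cells with the most UMIs), 0.0107 for Alox5ap in fibroblast-like cells (DESeq2), 0.12 for Alox5ap in fibroblast-like cells (replicate block), 0.0339 for Alox5ap in fibroblast-like cells (Leiden resolution 0.5), 0.60 for Alox5ap in fibroblast-like cells (without the 5% of cells with the most UMIs), 0.26 for Hpgd in all cells (without the 5% of cells with the most UMIs), 0.0106 for Alox5ap in all cells (no filter), 0.0196 for Alox5ap in all cells (replicate block). Where not shown by the setting, the cause was not tested. Of simulated 2-fold changes at most 45% were recovered in any class, which limits what a lack of calls shows.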
